A study of Mus musculus with 12 samples.

Results

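Collagen chains were taken as every spot of the array whose annotated gene symbol is Col, a number, the letter a and a number. The rule found 40 spots for 39 genes among 22393 spots, of which 18218 carried 1 gene symbol, and 35 spots for 35 genes held enough values to be tested. Mouse cell cultures had been treated with pioglitazone, telmisartan, irbesartan or vehicle, and drug and vehicle RNA were hybridised together on an Agilent 2-colour array, with 4 arrays for each drug. Pioglitazone, a thiazolidinedione, is an agonist of PPAR-gamma, a nuclear receptor of fat cell formation, and telmisartan and irbesartan are blockers of the angiotensin II type 1 receptor with a biphenyl core, telmisartan being a carboxylic acid with benzimidazole groups and irbesartan a tetrazole. The series title concerns angiotensin receptor blockers that activate PPAR-gamma, and pioglitazone stands beside them as the thiazolidinedione. The labels give no cell type, dose or treatment time, so the drugs are set side by side at doses that may differ. Each RNA was a pool of 3 cultures, and whether the 4 arrays of a drug came from 1 pool, or all drugs from 1 vehicle RNA, is not stated. The p-values therefore measure array-to-array spread alone, and that spread may be technical.

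Collagens are proteins of the extracellular matrix whose chains wind into a triple helix. Fibrillar collagens form the fibres of connective tissue, type IV collagen forms the sheet of the basement membrane, and other classes tie fibres together, surround cells or span the plasma membrane. In fat tissue, fibroblasts and preadipocytes are known as producers of fibrillar collagen, and adipocytes are wrapped in a basement membrane.

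Values are log2 ratios of drug over vehicle, so -1 stands for an RNA at a level 2 times lower than in vehicle, and a change was called at a Benjamini-Hochberg adjusted p under 0.05 in limma's moderated test over 17217 features. The direction is likely rather than stated, because no source names which channel is on top of the deposited ratio. It rests on genes that PPAR-gamma is known to switch on. Under pioglitazone 12 of 21 measured were higher (23.6% of all features) and 5 lower (26.3%), with a median of 0.51. In this and the other gene lists, a gene with several spots was counted by the spot with the smallest p in each comparison. That choice can raise the counts. Pdk4 stood at 2.05 and Olr1 at 3.45, and the lowest gene of the list at -1.12. Adipocyte markers, some of them on the same list, went the other way, with 6 of 9 lower and 1 higher under pioglitazone and a median of -0.62, so the basis is mixed. Under the opposite reading every "lower" in the text would be "higher" and the reverse. Empty spots took 7.47% to 20.2% of an array and collagen spots with a value numbered 33 to 38 of 40. Correlations between 2 arrays of a drug over all features ran between 0.28 and 0.92, the lowest being between telmisartan arrays 1 and 2. Pairs with the drug in the same channel ran from 0.58 to 0.92, and pairs with it in opposite channels from 0.28 to 0.72. For irbesartan these were 0.76 and 0.81 against 0.35 to 0.37. An RNA ratio from whole cultures cannot tell fewer cells of a type from less RNA per cell.

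Under pioglitazone 19 of the 35 collagen spots were lower and 4 higher, and the remaining 12 did not pass the test. Of all features tested, 26.3% were lower and 23.6% higher under pioglitazone, so a share of 54.3% lower stands beside 26.3%. Under telmisartan 19 were lower and 4 higher, against 21.1% and 19.9% of all features. Under irbesartan 14 were lower and 1 higher, against 16.9% and 14.4% of all features. The median over the 35 spots was -0.15 under pioglitazone, -0.15 under telmisartan and -0.04 under irbesartan, while the median of all features lay between 0.0030 and 0.0050 under the 3 drugs. At a fold of at least 1.5, 10 collagen spots were lower under pioglitazone (3.7% of all features), 4 under telmisartan (1.45%) and 3 under irbesartan (1.09%), and no collagen spot was higher by that much under any of the 3 drugs, where 2%, 0.953% and 0.668% of all features were. The ratio was below 0 on every measured array for 19 collagen spots under pioglitazone, 19 under telmisartan and 16 under irbesartan, against 27.3%, 20.8% and 19.3% of all features.

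All 9 tested fibrillar chains were lower under pioglitazone and under telmisartan, and 7 of 9 under irbesartan, with class medians of -0.95, -0.52 and -0.46. The 26 tested chains of the other classes held 10 lower under pioglitazone, 10 under telmisartan and 7 under irbesartan. Type IV chains had medians of -0.13, -0.08 and -0.06 in the same order of drugs. Of 7 fibril-associated chains, 2, 1 and 1 were lower and 1, 2 and 0 higher. In all, 13 chains were lower under all 3 drugs, namely Col1a1, Col1a2, Col2a1, Col3a1, Col5a1, Col5a2 and Col11a1 among the fibrillar chains, and Col4a1, Col4a5, Col6a2, Col16a1, Col8a1 and Col18a1 outside them. A further 5 were lower under 2 drugs and 3 under 1 drug, 8 were higher under at least 1 drug, and none was lower under 1 drug and higher under another. The shares of all features with these patterns were not counted.

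**Figure D1:**
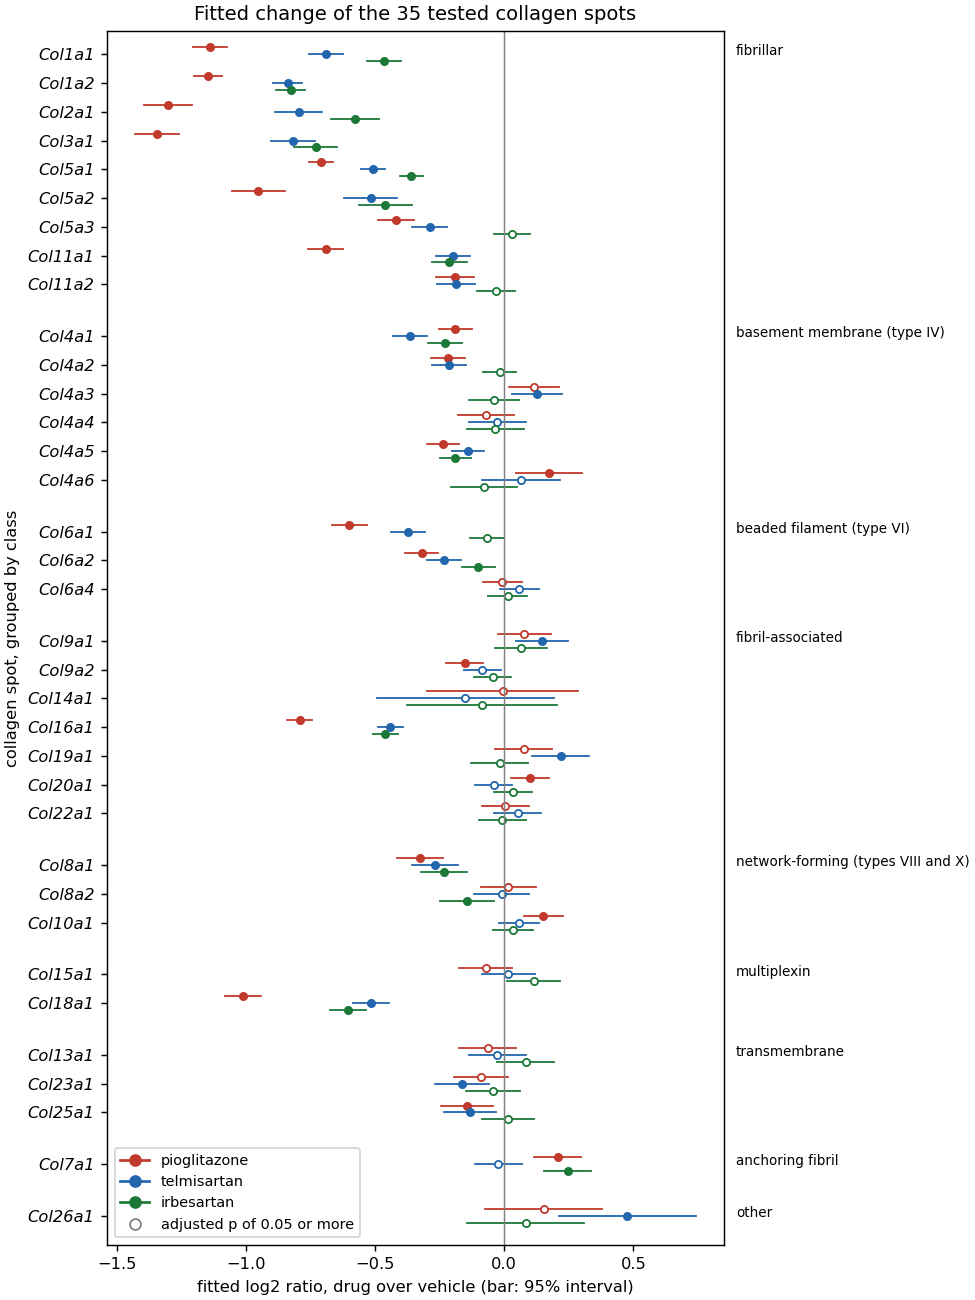
Fitted log2 ratio of drug over vehicle (horizontal axis) for the 35 collagen spots tested, grouped by class down the page, with pioglitazone, telmisartan and irbesartan in different colours, bars for 95% intervals and open points for an adjusted p of 0.05 or more. The 9 fibrillar chains at the top hold the deepest points, and most spots of the other classes lie closer to 0. Among those classes Col6a1, Col16a1 and Col18a1 reach lowest, and Col26a1 reaches highest, under telmisartan.

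The promoters below show the proximal sequence of chains that moved together (Col1a2, Col3a1 and Col16a1) and of the head-to-head pair Col4a1 and Col4a2, which share 1 promoter region and whose ratios are compared further on. Each runs from 250 bases before the annotated start to 50 after it, 5′ to 3′ on the gene's strand, from RefSeq on build GRCm38.p6. Capitals mark the letters CCAAT and TATAAA and their reverse complements ATTGG and TTTATA, the CCAAT box being a binding motif of the factor NF-Y and TATAAA a form of the TATA box.
Col1a2 promoter, chr6:4505368-4505667, plus strand: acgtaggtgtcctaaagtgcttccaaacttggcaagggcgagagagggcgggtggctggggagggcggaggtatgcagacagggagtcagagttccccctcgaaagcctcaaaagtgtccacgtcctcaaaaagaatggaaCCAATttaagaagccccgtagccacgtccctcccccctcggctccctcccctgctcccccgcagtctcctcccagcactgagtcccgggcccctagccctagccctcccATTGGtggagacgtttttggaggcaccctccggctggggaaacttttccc
Col3a1 promoter, chr1:45311288-45311587, plus strand: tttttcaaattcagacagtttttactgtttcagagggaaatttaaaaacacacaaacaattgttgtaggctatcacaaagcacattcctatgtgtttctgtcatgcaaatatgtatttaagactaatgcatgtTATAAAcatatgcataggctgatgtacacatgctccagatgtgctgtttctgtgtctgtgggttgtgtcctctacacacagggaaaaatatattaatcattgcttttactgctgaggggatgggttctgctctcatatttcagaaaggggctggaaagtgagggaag
Col16a1 promoter, chr4:130047590-130047889, plus strand: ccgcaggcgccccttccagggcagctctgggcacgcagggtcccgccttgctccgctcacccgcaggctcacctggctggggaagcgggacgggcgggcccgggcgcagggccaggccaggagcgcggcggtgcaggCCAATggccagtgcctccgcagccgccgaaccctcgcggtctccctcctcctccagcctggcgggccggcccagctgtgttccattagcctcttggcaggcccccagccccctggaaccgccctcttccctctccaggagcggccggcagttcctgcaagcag
Col4a1 promoter, chr8:11312777-11313076, minus strand: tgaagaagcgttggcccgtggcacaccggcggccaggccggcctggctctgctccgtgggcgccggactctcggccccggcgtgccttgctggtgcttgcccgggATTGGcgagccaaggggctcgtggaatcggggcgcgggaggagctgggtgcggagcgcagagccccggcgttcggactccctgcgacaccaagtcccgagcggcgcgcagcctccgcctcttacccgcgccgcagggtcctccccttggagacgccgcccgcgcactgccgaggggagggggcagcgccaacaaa
Col4a2 promoter, chr8:11312555-11312854, plus strand: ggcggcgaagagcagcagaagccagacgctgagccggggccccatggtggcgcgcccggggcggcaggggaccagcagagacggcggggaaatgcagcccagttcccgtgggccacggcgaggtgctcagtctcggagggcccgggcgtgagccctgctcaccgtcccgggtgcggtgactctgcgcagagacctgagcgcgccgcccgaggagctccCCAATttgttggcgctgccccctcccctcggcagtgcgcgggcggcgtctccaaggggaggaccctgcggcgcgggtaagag
The Col1a2 window holds 2 CCAAT matches, those of Col16a1, Col4a1 and Col4a2 hold 1 each, and the Col3a1 window holds a TATAAA match. The Col4a1 and Col4a2 windows overlap by 78 bases. Among 32851 windows of the same length, on both strands, 37.4% hold CCAAT, 35.7% the GC box GGGCGG and 13.6% TATAAA. Windows were found for 28 of the 35 tested collagen genes, and Col1a1, Col2a1, Col5a2, Col4a3, Col14a1, Col22a1 and Col26a1 have no entry. CCAAT stood in 6 of the 12 windows of chains lower under all 3 drugs (50%) and in 6 of the 19 windows of the other tested chains (31.6%). GGGCGG stood in 10 of 12 (83.3%) and in 10 of 19 (52.6%). The 12 windows came from 10 genes and the 19 from 18 genes, so some genes were counted more than once. The letters AGGTCA repeated after 1 base of any kind, the form of element that PPAR-gamma binds with RXR, was in 0 of the 31 collagen windows and in 0.0396% of all windows. These are matches of letters and say nothing of binding.

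Type I collagen, the main fibre of skin, bone and tendon, is made of Col1a1 and Col1a2 chains. Col1a1 read -1.07, -1.22, -1.15 and -1.12 on the pioglitazone arrays, -0.74, -0.70, -0.66 and -0.67 on the telmisartan arrays and -0.49, -0.41, -0.50 and -0.45 on the irbesartan arrays. The 3 drugs did not overlap, with pioglitazone lowest and irbesartan closest to 0. The fitted ratio was -1.14 ± 0.03 under pioglitazone (SE, n = 4, adjusted p 2.95e-10), a level 2.2 times lower than in vehicle. It was -0.69 under telmisartan (adjusted p 3.03e-08) and -0.46 under irbesartan (adjusted p 6.92e-07). Col1a2 read -1.11, -1.18, -1.14 and -1.16 under pioglitazone, -0.82, -0.81, -0.81 and -0.91 under telmisartan and -0.82, -0.80, -0.85 and -0.84 under irbesartan. Here the pioglitazone arrays stood apart, while telmisartan and irbesartan overlapped. The fitted ratios of Col1a2 were -1.15 ± 0.03, -0.84 and -0.83 in that order, with adjusted p of 7.68e-11, 3.56e-09 and 4.82e-09.

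Col3a1 codes for type III collagen, found with type I in elastic and loose tissues. It read -1.42, -1.27, -1.29 and -1.41 under pioglitazone, -0.81, -0.81, -0.85 and -0.80 under telmisartan and -0.81, -0.66, -0.86 and -0.60 under irbesartan. Its fitted ratio under pioglitazone, -1.34 ± 0.04 (2.54 times lower than in vehicle), was the lowest of the 35 collagen spots. The irbesartan values split by dye order, deeper on arrays 1 and 3 than on arrays 2 and 4, while the telmisartan values were narrow. Both drugs passed the test (-0.82, adjusted p 5.06e-08, and -0.73, adjusted p 1.66e-07). Col2a1 codes for type II collagen, the fibre of cartilage. Its spot read -1.27, -1.39, -1.21 and -1.34 under pioglitazone, -0.79, -0.81, -0.76 and -0.82 under telmisartan and -0.63, -0.63, -0.63 and -0.41 under irbesartan. The fitted ratios of Col2a1 were -1.30 ± 0.04 (adjusted p 1.16e-09), -0.80 (1.12e-07) and -0.58 (1.44e-06). Of 5 measured chondrocyte markers, Comp was lower under each drug (-1.87, -1.10 and -1.02), and Acan, Matn1, Snorc and Sox9 passed the test under none, with Acan, the cartilage proteoglycan, at -0.04, 0.05 and 0.03. Whether the Col2a1 spot also binds RNA of other fibrillar collagens was not tested.

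Type V and type XI chains build the fine fibrils that start and limit larger fibres. Col5a1 read -0.69, -0.73, -0.69 and -0.73 under pioglitazone, -0.49, -0.53, -0.47 and -0.54 under telmisartan and -0.35, -0.36, -0.32 and -0.40 under irbesartan, with no overlap between the drugs. The fitted ratios were -0.71 ± 0.02 (adjusted p 5.95e-10), -0.51 (2.03e-08) and -0.36 (2.92e-07). Col5a2 read -0.89, -0.96, -0.99 and -0.97 under pioglitazone, -0.52, -0.55, -0.52 and -0.48 under telmisartan and -0.58, -0.33, -0.64 and -0.28 under irbesartan. Its irbesartan values split by dye order, deeper on arrays 1 and 3 than on arrays 2 and 4. The fit, which carries a term for the dye, gave -0.95 ± 0.05 under pioglitazone (adjusted p 2.97e-08), -0.52 under telmisartan and -0.46 under irbesartan. Col5a3, the third type V chain, read -0.40, -0.46, -0.32 and -0.50 under pioglitazone, -0.26, -0.29, -0.36 and -0.25 under telmisartan and 0.03, 0.04, 0.03 and 0.03 under irbesartan. It was lower under pioglitazone (-0.42 ± 0.03, adjusted p 7.74e-07) and telmisartan (-0.29, adjusted p 2.36e-05), and its irbesartan value of 0.03 (adjusted p 0.542) did not pass.

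Col11a1 read -0.64, -0.70, -0.63 and -0.79 under pioglitazone, -0.23, -0.18, -0.18 and -0.21 under telmisartan and -0.25, -0.26, -0.14 and -0.19 under irbesartan. The pioglitazone values lay far below the other two drugs, which overlapped. Fitted values were -0.69 ± 0.03 (adjusted p 1.28e-08), -0.20 (0.000318) and -0.21 (0.000244). Col11a2, its partner in type XI collagen, was lower under pioglitazone and telmisartan at -0.19 each (adjusted p 0.000557 and 0.000884) and stood at -0.03 under irbesartan.

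**Figure D2:**
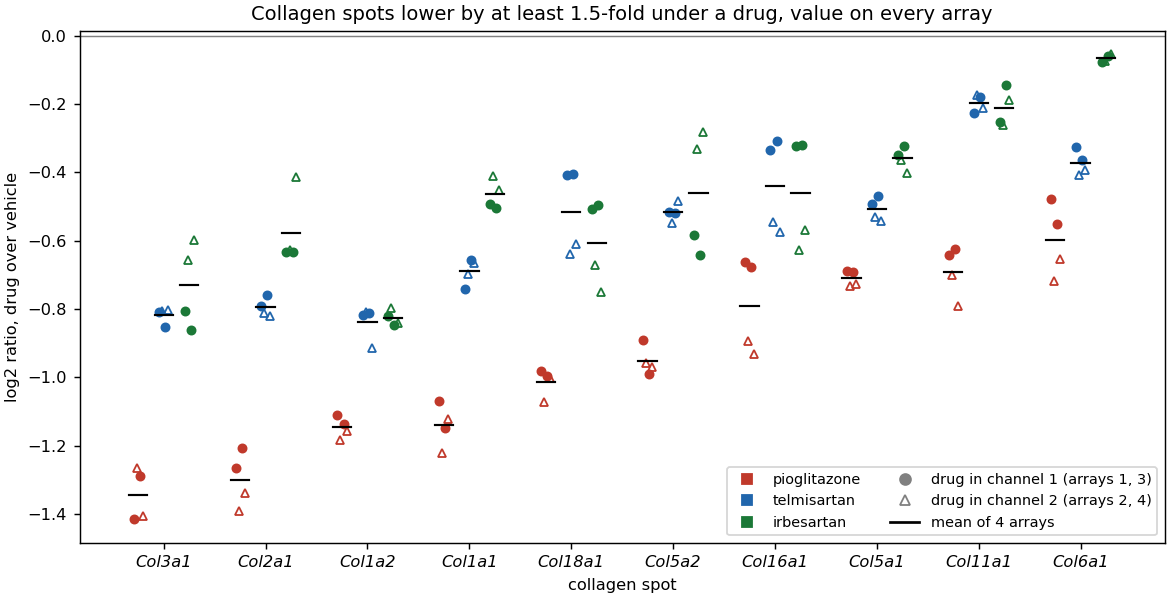
Log2 ratio of drug over vehicle on each of the 4 arrays (circles with the drug in channel 1, triangles in channel 2, a bar at the mean) for the collagen spots lower by at least 1.5-fold under at least 1 drug, with pioglitazone left, telmisartan next and irbesartan right for each gene. Pioglitazone points are the lowest for each gene shown, and Col1a2, Col3a1, Col5a2, Col11a1, Col16a1 and Col18a1 have overlapping telmisartan and irbesartan points.

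Among basement membrane chains, Col4a1 and Col4a2 form the ubiquitous network and the other 4 are restricted to particular membranes. Col4a1 read -0.12, -0.23, -0.19 and -0.22 under pioglitazone, -0.42, -0.40, -0.35 and -0.29 under telmisartan and -0.28, -0.21, -0.19 and -0.24 under irbesartan. All 12 arrays were below 0, and of the 13 chains lower under all 3 drugs it was the only one with its lowest fitted value under telmisartan (-0.37, adjusted p 2.66e-06, against -0.19 under pioglitazone and -0.23 under irbesartan). Col4a2 read -0.04, -0.31, -0.21 and -0.31 under pioglitazone, -0.12, -0.31, -0.17 and -0.25 under telmisartan and 0.04, -0.08, 0.07 and -0.11 under irbesartan. It was lower under pioglitazone (-0.22, adjusted p 8.83e-05) and telmisartan (-0.21, adjusted p 0.000145), and stood at -0.02 under irbesartan. In each drug its arrays 2 and 4 were lower than arrays 1 and 3. Col4a5 was lower under each drug at -0.24, -0.14 and -0.19. Col4a6, its head-to-head neighbour on the X chromosome, was higher under pioglitazone at 0.17 ± 0.06 (adjusted p 0.0286), a call lost without any 1 of the 4 pioglitazone arrays (adjusted p 0.0549 to 0.113). That call was also lost with no dye term (0.144) and with a dye term for each drug (0.051). Col4a3 was higher under telmisartan at 0.13 (adjusted p 0.0401), a call lost without telmisartan arrays 1, 3 or 4, pioglitazone array 3 or irbesartan arrays 1, 2 or 3 (0.0526 to 0.154) and with a replicate block (0.0640), and Col4a4 stood between -0.07 and -0.03 under the 3 drugs.

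Type VI collagen makes the beaded filaments around cells. Col6a1 read -0.48, -0.72, -0.55 and -0.65 under pioglitazone, -0.33, -0.41, -0.36 and -0.39 under telmisartan and -0.08, -0.07, -0.06 and -0.06 under irbesartan. The 3 drugs did not overlap. It was lower under pioglitazone (-0.60 ± 0.03, adjusted p 3.41e-08) and telmisartan (-0.37, adjusted p 2.6e-06), and irbesartan's -0.07 (adjusted p 0.131) did not pass. Col6a2 read -0.24, -0.44, -0.21 and -0.39 under pioglitazone, -0.06, -0.42, -0.11 and -0.34 under telmisartan and -0.05, -0.14, 0.03 and -0.23 under irbesartan. In each drug arrays 2 and 4, which carried the drug in the opposite channel, were lower than arrays 1 and 3. Its fitted values were -0.32, -0.23 and -0.10. The irbesartan call (adjusted p 0.0244) had 3 of 4 arrays below 0 and was lost without irbesartan arrays 1, 3 or 4 (0.0568 to 0.135) and with a replicate block (0.0535). With no dye term its adjusted p was 0.389. Col6a4 stood between -0.01 and 0.06.

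Col16a1, a chain of the class that associates with fibrils, read -0.66, -0.89, -0.68 and -0.93 under pioglitazone, -0.34, -0.55, -0.31 and -0.57 under telmisartan and -0.32, -0.63, -0.32 and -0.57 under irbesartan. Arrays 2 and 4 were lower than arrays 1 and 3 in every drug, and pioglitazone was lowest in each dye order. The fitted ratios were -0.79 ± 0.02 (adjusted p 4.45e-10), -0.44 (9.08e-08) and -0.46 (9.17e-08). Col18a1, the basement membrane chain whose C-terminal fragment is endostatin, read -0.98, -1.07, -0.997 and -1.001 under pioglitazone, -0.41, -0.64, -0.40 and -0.61 under telmisartan and -0.51, -0.67, -0.49 and -0.75 under irbesartan. Its pioglitazone arrays lay below all 8 others. Under telmisartan and irbesartan its arrays 2 and 4 were lower than arrays 1 and 3. Fitted values were -1.01 ± 0.03 (2.02 times lower than in vehicle, adjusted p 9.37e-10), -0.52 (3.21e-07) and -0.61 (1.52e-07). Col15a1, the other chain of that class, stood at -0.07, 0.02 and 0.11 and passed under no drug.

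The remaining changes were below 1.5-fold, except where given. Col8a1, a short chain of networks around vessels and in the cornea, was lower under each drug at -0.33, -0.27 and -0.23 with 12 of 12 arrays below 0. Its partner Col8a2 was lower under irbesartan at -0.15 (adjusted p 0.0388), a call lost without any 1 of the irbesartan arrays, pioglitazone arrays 3 or 4 or telmisartan array 3 (0.0514 to 0.191) and with a replicate block (0.0593). Col10a1, the collagen of hypertrophic cartilage, was higher under pioglitazone at 0.15 (adjusted p 0.00379). Col9a2 was lower under pioglitazone at -0.15 (adjusted p 0.0023), and its type IX partner Col9a1 was higher under telmisartan at 0.15 (adjusted p 0.0255), lost without telmisartan arrays 1 or 4 (0.0957 and 0.109). Col19a1 was higher under telmisartan at 0.22 (adjusted p 0.00442). Col20a1 was higher under pioglitazone at 0.10 (adjusted p 0.0256), lost without pioglitazone arrays 1 or 4 (0.159 and 0.0547). Col14a1, Col22a1 and the transmembrane chain Col13a1 passed under no drug, with fitted values from -0.15 to 0.08, the Col14a1 value under telmisartan resting on 3 arrays.

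Among transmembrane chains, Col23a1 was lower under telmisartan at -0.16 (adjusted p 0.0164), lost without telmisartan arrays 1 or 4 (0.0805 and 0.0709). Col25a1 read 0.08, -0.40, 0.04 and -0.28 under pioglitazone and -0.02, -0.21, 0.13 and -0.43 under telmisartan. Its values followed the dye order, with arrays 2 and 4 lower than arrays 1 and 3 under both drugs. The pioglitazone call (-0.14, adjusted p 0.0223) was lost without pioglitazone arrays 2, 3 or 4 (0.0543 to 0.128). It was also lost with no dye term (0.27) and with arrays scaled to 1 spread (0.0558). The telmisartan call (-0.13, adjusted p 0.0357) was lost without telmisartan arrays 1 or 4 (0.132 to 0.193). It was also lost in 5 other settings (0.0517 to 0.34), among them no dye term (0.34) and a replicate block (0.0652). Col7a1, the chain of the fibrils that anchor epithelium to its stroma, read 0.22, 0.13, 0.25 and 0.22 under pioglitazone, -0.04, -0.08, 0.04 and -0.02 under telmisartan and 0.40, 0.07, 0.40 and 0.11 under irbesartan. It was higher under pioglitazone (0.21 ± 0.04, adjusted p 0.00152) and irbesartan (0.25, adjusted p 0.000782), and the telmisartan value of -0.02 (adjusted p 0.693) did not pass. Its irbesartan values split by dye order, higher on arrays 1 and 3 than on arrays 2 and 4. Col26a1 read 0.75, 0.07 and 0.76 on telmisartan arrays 2, 3 and 4, those with a value, and was higher there at 0.48 ± 0.12 (adjusted p 0.00903). These values followed the dye order, with array 3 the only one with the drug in channel 1. That call was lost without telmisartan array 4 (0.41, adjusted p 0.0542) and with array weights (0.38, adjusted p 0.0735). The pioglitazone arrays of Col26a1 split likewise, at -0.21 and 0.05 on arrays 1 and 3 and 0.38 and 0.39 on arrays 2 and 4.

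Of the 40 spots, 5 held too few values to be tested. Col9a3 and a second Col14a1 spot held no value. Col17a1 held 1 value, -0.01 on irbesartan array 2. Col6a6 held 4, which were -0.73 under pioglitazone, -0.20 under telmisartan and -0.27 and 0.20 under irbesartan. Col24a1 held 3 pioglitazone values from -0.39 to 0.00, 2 telmisartan values of -0.16 and 0.15, and 3 irbesartan values from -0.26 to -0.02. Col6a3, Col6a5, Col12a1, Col21a1, Col27a1 and Col28a1 had no spot by the rule and were not analysed here.

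The drugs were next set against each other. Pioglitazone minus telmisartan passed in 12 of 35 collagen spots (14.7% of all features), 10 of them lower under pioglitazone (8.6% of all features) and 2 higher (6.07%). Pioglitazone minus irbesartan passed in 14 (18.1% of all features), all 14 lower under pioglitazone (10.5% of all features were lower and 7.62% higher). Telmisartan minus irbesartan passed in 7 (9.38% of all features), all 7 lower under telmisartan (4.42% of all features were lower and 4.96% higher). In 12 of the 13 chains lower under all 3 drugs the pioglitazone value was the lowest. How often that holds among all features lower under all 3 drugs was not counted. Of all features, 3.7% were lower by at least 1.5-fold under pioglitazone, against 1.45% under telmisartan and 1.09% under irbesartan.

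The gap between pioglitazone and telmisartan was -0.45 for Col1a1 (adjusted p 7.84e-05), -0.31 for Col1a2 (0.000312), -0.51 for Col2a1 (0.000323), -0.53 for Col3a1 (0.000147) and -0.49 for Col11a1 (4.78e-05). It was also past the threshold for Col5a1 at -0.20, Col5a2 at -0.43, Col6a1 at -0.23, Col16a1 at -0.35 and Col18a1 at -0.50. In the other direction Col4a1 was at 0.18 (adjusted p 0.0169), lost without pioglitazone array 1 or telmisartan array 1 (0.0527 and 0.0501), and Col7a1 at 0.23 (0.0232), lost without pioglitazone arrays 2 or 4 or telmisartan arrays 1 or 3 (0.0535 to 0.0765). With no dye term, Col4a1, Col7a1 and Col16a1 no longer passed between these drugs (adjusted p 0.0616, 0.142 and 0.0677), nor did Col7a1 with arrays scaled to 1 spread (0.0948). Against irbesartan, pioglitazone was lower by the most in Col2a1 (-0.72, adjusted p 2.92e-05), Col1a1 (-0.68, 5.63e-06), Col3a1 (-0.61, 4.41e-05) and Col6a1 (-0.53, 2.74e-05). Col5a2, Col11a1, Col5a3, Col18a1, Col5a1, Col16a1, Col1a2, Col6a2, Col4a2 and Col11a2 followed, from -0.49 to -0.16, and the Col11a2 call was lost without any 1 pioglitazone array, irbesartan arrays 1, 3 or 4 or telmisartan array 3 (0.0521 to 0.117) and with a replicate block (0.0635). With arrays scaled to 1 spread, the difference shrank to -0.07 for Col1a2 (adjusted p 0.438), -0.21 for Col18a1 (0.072) and -0.14 for Col11a2 (0.115), and none of the 3 passed. With no dye term Col16a1, Col4a2, Col6a2 and Col11a2 did not pass (0.0733 to 0.221).

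Telmisartan and irbesartan are both receptor blockers that differ in the acid group of the biphenyl and in the ring system beside it. Telmisartan was lower than irbesartan in Col5a3, with a difference of -0.32 (95% interval -0.42 to -0.22, adjusted p 0.0022) and in Col6a1, with -0.31 (-0.40 to -0.21, adjusted p 0.00224). Col1a1 differed by -0.23 (-0.32 to -0.13), Col5a1 by -0.15 (-0.21 to -0.08), Col4a2 by -0.20 (-0.29 to -0.10), Col7a1 by -0.27 (-0.40 to -0.14) and Col2a1 by -0.22 (-0.35 to -0.09). Of these, Col2a1 was lost without any array other than pioglitazone arrays 2 and 3 (adjusted p 0.0549 to 0.0922) and with a replicate block (0.0711), Col7a1 without telmisartan array 1 or irbesartan arrays 1 or 3 (0.0526 to 0.0548) and Col4a2 without telmisartan array 3 (0.05). With arrays scaled to 1 spread the difference was -0.11 for Col1a1 (adjusted p 0.106), -0.06 for Col5a1 (0.381) and -0.07 for Col2a1 (0.53), and none of these passed. With no dye term Col5a1, Col2a1, Col7a1 and Col4a2 did not pass (0.129 to 0.262). The difference did not pass for Col1a2 at -0.01 (-0.09 to 0.07, adjusted p 0.887), Col3a1 at -0.09 (-0.21 to 0.03), Col5a2 at -0.06 (-0.20 to 0.09), Col11a1 at 0.01 (-0.08 to 0.11), Col16a1 at 0.02 (-0.05 to 0.09) and Col18a1 at 0.09 (-0.01 to 0.19). These intervals measure array-to-array spread in the main fit, at doses that the labels do not give. With arrays scaled to 1 spread the Col1a2 difference was 0.17 (adjusted p 0.0428), outside its interval.

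**Figure D3:**
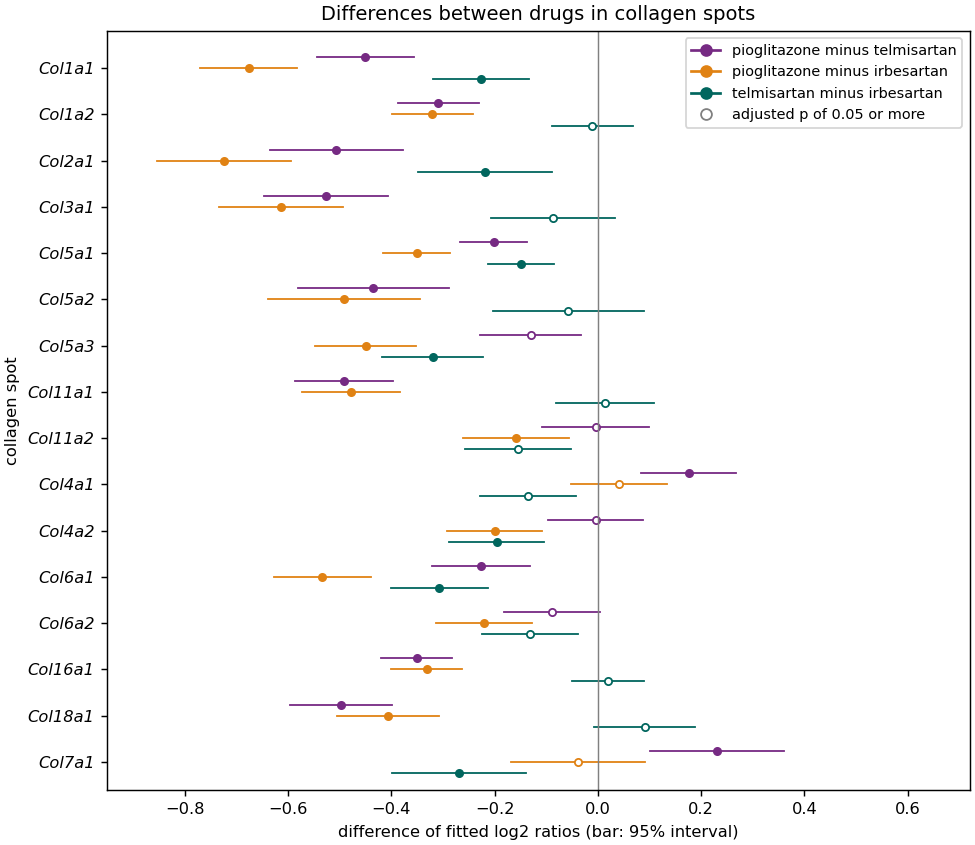
Difference between drugs in fitted log2 ratio (horizontal axis, bars for 95% intervals) for 16 collagen spots down the page, with pioglitazone minus telmisartan, pioglitazone minus irbesartan and telmisartan minus irbesartan in different colours and open points for an adjusted p of 0.05 or more. Differences from pioglitazone lie below 0 for the fibrillar chains, and the telmisartan minus irbesartan intervals of Col1a2, Col3a1, Col5a2, Col11a1, Col16a1 and Col18a1 cross 0.

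Chains that assemble together did not always move by the same amount. The difference of Col1a1 minus Col1a2 on single arrays ran from -0.04 to 0.04 under pioglitazone, from 0.08 to 0.25 under telmisartan and from 0.33 to 0.39 under irbesartan. Both type I chains were lower by like amounts under pioglitazone, while under irbesartan Col1a2 was lower than Col1a1 on 4 of 4 arrays. Col11a1 minus Col11a2 ran from -0.52 to -0.48 under pioglitazone, from -0.05 to 0.03 under telmisartan and from -0.30 to -0.12 under irbesartan. Col6a1 minus Col6a2 was below 0 on 4 of 4 pioglitazone arrays (-0.34 to -0.24), 3 of 4 telmisartan arrays and 2 of 4 irbesartan arrays. Col4a1 minus Col4a2, whose promoters overlap as printed above, ran from -0.08 to 0.09 under pioglitazone, from -0.30 to -0.04 under telmisartan and from -0.31 to -0.13 under irbesartan. Col5a1 minus Col5a3 was below 0 on all 12 arrays and reached -0.43 under irbesartan. These are differences within an array between spots of unlike response, and with 4 arrays a drug they were not tested.

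**Figure D4:**
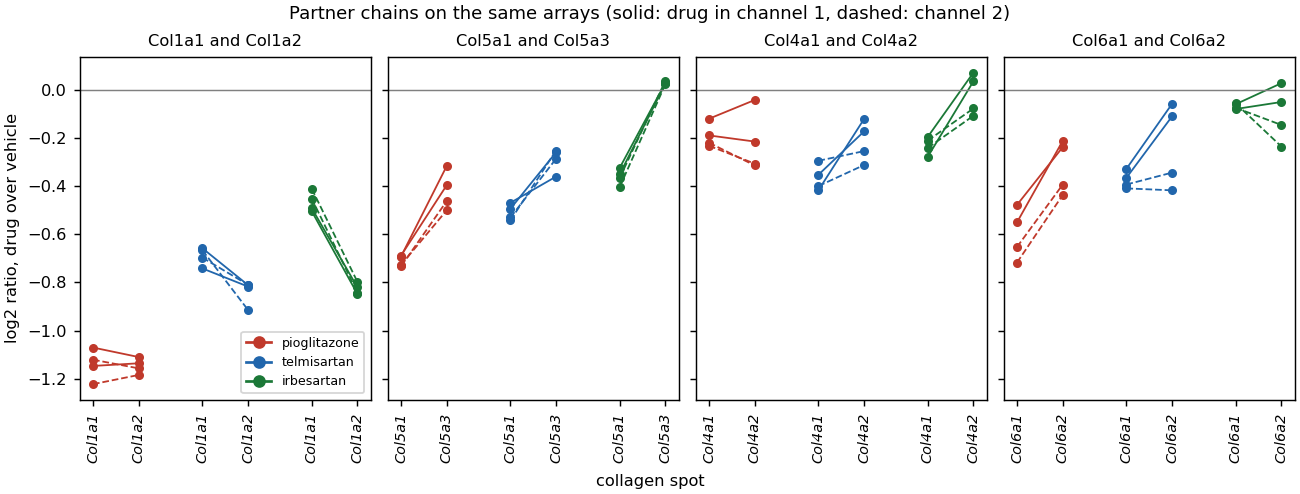
Log2 ratio of drug over vehicle of partner chains on the same array (points joined by a line for each array, solid with the drug in channel 1 and dashed in channel 2), with pioglitazone, telmisartan and irbesartan side by side for 4 pairs. Col1a1 and Col1a2 lie together under pioglitazone and apart by 0.33 to 0.39 under irbesartan.

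Genes of the proteins that make, cut and read collagen were measured too. A gene with several spots was again counted by the spot with the smallest p in each comparison, which can raise the counts. Of all features, 26.3%, 21.1% and 16.9% were lower under pioglitazone, telmisartan and irbesartan, and 23.6%, 19.9% and 14.4% higher. List counts near these shares do not set a list apart. Of 17 measured genes for folding and modification, 10 were lower and 3 higher under pioglitazone, 8 and 4 under telmisartan, and 7 and 3 under irbesartan. Sparc, a collagen-binding matrix protein, stood at -0.74, -0.41 and -0.24, and Serpinh1, the collagen chaperone HSP47, at -0.46, -0.42 and -0.23. P3h3, a prolyl 3-hydroxylase family member, stood at -0.61, -0.44 and -0.34, and P3h4 was higher under each drug at 0.18, 0.27 and 0.22. All 7 measured genes of procollagen cleavage and cross-linking were lower under pioglitazone, 3 under telmisartan and 4 under irbesartan. Lox, which starts cross-links, stood at -1.48, -0.43 and -0.39, and Pcolce, the enhancer of C-propeptide cleavage, at -1.15, -0.75 and -0.66. Bmp1, the protease that removes that propeptide, was at -0.73, -0.40 and -0.28. Adjusted p for these 3 genes under the 3 drugs ran from 1.38e-10 to 0.0013.

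Of 7 measured collagen receptors, 6 were lower under pioglitazone, 3 under telmisartan and 2 under irbesartan, and Itga11, an integrin chain for fibrillar collagen, was higher under telmisartan (0.28) and irbesartan (0.37). Ddr1, a collagen-activated kinase, was at -0.78, -0.61 and -0.54, and Mrc2, the receptor that takes up collagen fragments, was lower under pioglitazone at -1.22 and did not pass under telmisartan (-0.25) or irbesartan (-0.04). Of 11 measured genes of collagen breakdown and its inhibitors, 9 were lower and 1 higher under pioglitazone, 5 lower under telmisartan and 7 lower under irbesartan. Mmp14, the membrane collagenase, stood at -1.09, -0.68 and -0.70. Mmp2, a gelatinase, was at -0.68, 0.01 and -0.31, and the inhibitor Timp3 at -0.60, -0.25 and -0.41. Of 12 measured regulators of collagen genes, 8, 8 and 7 were lower and 1, 2 and 1 higher. Tgfbr2, a receptor of TGF-beta, was lower at -0.68, -0.43 and -0.76, and Cebpb was higher at 0.36, 0.27 and 0.15.

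Markers of cell types were read beside the collagen values, since the labels name no cell type. Their counts stand beside 26.3%, 21.1% and 16.9% of all features lower and 23.6%, 19.9% and 14.4% higher, in the same order of drugs. Of 6 measured fibroblast and preadipocyte markers of 10 listed, 5 were lower under each of the 3 drugs, with medians of -1.02, -0.63 and -0.69. Pdgfra stood at -1.41, -0.81 and -0.86, Vim at -1.001, -0.81 and -0.82, and Dlk1 at -1.03, -0.73 and -0.64, and Twist2 went the other way at 0.40 and 0.33 under pioglitazone and telmisartan. Of 9 measured adipocyte markers, 6, 4 and 4 were lower and 1, 0 and 3 higher, with medians of -0.62, -0.27 and -0.09. Under pioglitazone the adipocyte markers ran from -1.12 to 0.11. Smooth muscle markers were lower in 4, 4 and 3 of 5. Of 4 macrophage markers 0, 1 and 1 were lower and 0, 1 and 0 higher, and of 3 endothelial markers none passed in the limma test under any drug. The table holds ratios only, so a marker's level is unknown. The part of these marker changes in the collagen values was not tested.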

How the data were processed

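Total RNA from drug-treated and vehicle-treated mouse cell cultures was hybridised on 12 Agilent 2-colour arrays, 4 each for pioglitazone, telmisartan and irbesartan, per the labels. The deposited table was taken to hold log10 ratios of the 2 channels, a unit read off the values, which end at -2 and 2. What the authors did before depositing these log10 values (scanning settings, background correction, dye normalisation) is not given in the sources used here. Intensities were not used here, so signal over background is unknown.

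Values were multiplied by 3.32 to log2 and turned to drug over vehicle by the labelled drug channel, taking channel 2 as the numerator. Channel 1 held the drug on arrays 1 and 3. A set of 471 spots with no gene and large ratios was left out, 48 sets of repeat spots (10 to 11 each) were averaged to 21486 features, and 17217 with values on at least 3 of 4 arrays of each drug were tested. A limma 3.58.1 model (R 4.3.3) held 3 drug coefficients and a dye coefficient, with Benjamini-Hochberg adjustment over all 17217 features. The fit was tested on simulated data. The differences between drugs came from the same fit. Arrays with a missing value of a spot were dropped for that spot. All 40 collagen spots were matched to a gene by Entrez number, using GEO's platform annotation and RefSeq.

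Collagen members and all gene lists were chosen with earlier results of these data known. Every member is accounted for, those at 1.5-fold or more past the threshold with every array; of other lists, up to 4 genes were named, those with the largest change past the threshold and 1 sign on all measured arrays, while P3h4, Itga11, Cebpb, Twist2 and Acan were named after their values were seen. No single adipocyte, smooth muscle, macrophage or endothelial marker was named. Alternatives changed the dye term, scaling, weights, filters, replicate block, averaging of dye-swapped pairs and the arrays left out. Arrays with 1 number share a dye order, per the labels, and deviated together (correlation 0.23 to 0.47), which ran from -0.36 to 0.07 with the dye coefficient removed. That coefficient was estimated from the same arrays, and removing it lowers the correlation by construction. The drop cannot show whether arrays with 1 number share anything beyond dye order. The dye coefficient was kept in place of a replicate block, and the block was fitted as an alternative.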

Additional observations from a re-analysis of the deposited data

Results flagged for a closer look

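Of 102 sets of 4 arrays (a collagen spot under a drug), 6 held an array whose gap to the nearest other array took most of the set's range. Chance alone gives about 1 in 20 sets. Col1a2 under telmisartan read -0.91 on array 4 and -0.82 to -0.81 on the others. Col3a1 under telmisartan read -0.85 on array 3 and -0.81 to -0.80 on the others. Col2a1 under irbesartan read -0.41 on array 4 and -0.63 on the others. Col20a1 under telmisartan read 0.0677 on array 2 and -0.09 to -0.07 on the others. Col13a1 under pioglitazone read -0.29 on array 4 and -0.01 to 0.03 on the others. Col23a1 under irbesartan read -0.15 on array 2 and -0.02 to -0.00 on the others. The calls of Col1a2 and Col3a1 under telmisartan and of Col2a1 under irbesartan, against vehicle, kept their side of the threshold when the array in question was left out.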

How the results depend on the processing

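The counts of collagen spots lower under pioglitazone (19), telmisartan (19) and irbesartan (14) ran from 18 to 19, 17 to 20 and 12 to 14 when an array was left out, and from 18 to 19, 17 to 20 and 12 to 15 under the other settings. Pioglitazone minus telmisartan (12) ran from 10 to 14 and from 9 to 13, and pioglitazone minus irbesartan (14) from 13 to 17 and from 10 to 16. Telmisartan minus irbesartan (7) ran from 5 to 9 without an array, and was 3 with no dye term and 12 with a dye term for each drug. With the replicate block the 6 counts were 19, 18, 12, 12, 14 and 6. With it Col25a1 and Col4a3 under telmisartan and Col8a2 and Col6a2 under irbesartan no longer passed (adjusted p 0.0652, 0.0640, 0.0593 and 0.0535). Nor did Col11a2 in pioglitazone minus irbesartan (0.0635) and Col2a1 in telmisartan minus irbesartan (0.0711), while Col4a6 in pioglitazone minus irbesartan passed (0.0382). With no dye term, Col25a1, Col20a1 and Col4a6 under pioglitazone no longer passed (adjusted p 0.27, 0.0786 and 0.144). Col25a1, Col4a3 and Col23a1 under telmisartan (0.34, 0.079 and 0.0621) and Col8a2 and Col6a2 under irbesartan (0.0939 and 0.389) were lost there too. Col1a2, telmisartan minus irbesartan, turned to 0.17 (adjusted p 0.0428) with arrays scaled to 1 spread, against -0.01 as reported. That setting divides each array by its own spread, 0.161 to 0.191 for irbesartan and 0.194 to 0.251 for telmisartan. It thus enlarges the irbesartan ratios against those of telmisartan. Why the irbesartan arrays had less spread was not tested. Of 94 calls, 70 held in every setting run, among them 20 of 23 for pioglitazone, 18 of 23 for telmisartan and 13 of 15 for irbesartan. Between drugs, 9 of 12 held for pioglitazone minus telmisartan and 8 of 14 for pioglitazone minus irbesartan. Only 2 of 7 held for telmisartan minus irbesartan. The fit of each drug on its own arrays gives no difference between drugs. The setting that keeps the control-like spots was added after seeing the data.

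Depth is unknown beyond the share of empty spots, and 12 arrays of pooled RNA limit the precision.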
